A study of Mus musculus with 13 samples.

Results

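Lin28a, Hmga2, Igf2bp1 and Igf2bp3 are described here across 13 arrays that followed mouse embryonic fibroblasts through reprogramming to induced pluripotent stem (iPS) cells. They belong to a set of 7 genes chosen by name, the Lin28 paralogs, the let-7 targets Trim71, Hmga2, Igf2bp1 and Igf2bp3, and the RNA-binding protein gene L1td1. Of these 7 genes, 4 had a transcript cluster that the platform annotation ties to that symbol alone, out of 14860 genes with such a cluster, and each of the 4 had 1 such cluster. Lin28b, Trim71 and L1td1 were not analysed here. A further cluster, annotated to both Sdccag8 and Hmga2, was not used.

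The arrays held 2 samples of Dox-independent iPS cells, called 6C-primary and 6C-secondary, 6 samples of 6C-secondary fibroblasts on doxycycline (Dox) at days 2, 5, 8, 11, 16 and 21, 1 sample of 1B-secondary fibroblasts at 5 days of Dox, 1 of 1B cells given 5 days of Dox and then 5 days without it, and 3 samples of untreated fibroblasts (parental cells, 6C day 0 and 1B day 0). Dox was used at 1.5 µg per ml and acts on an inducible promoter, and all cells were grown in mouse embryonic stem cell medium. The design text speaks of 6C as clones, so each line may stand for a single clone. The labels give no strain, no age and no separate cultures of a condition. Both iPS samples are of line 6C, while the 3 untreated samples are of different lines. The p-values for iPS against untreated cells measure the spread among these arrays, which may be technical in part. The array labelled 6C day 0 has a name that speaks of day 2 without Dox, the name of the day 8 array differs by a day, and the iPS samples carry Dox as their agent although they are called independent of it. The sample labels were followed. The array names form 4 runs: run 1 held 6C at days 0 and 21, run 2 the primary iPS sample, the parental sample and 6C at days 2, 5, 11 and 16, run 3 the 1B samples, and run 4 the secondary iPS sample with 6C at day 8.

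Levels are deposited log2 values per transcript cluster, so 1 unit is a 2-fold difference, and a level is not compared between genes. Array medians lay between 6.34 and 6.67, the lowest in 6C at day 0. Called markers went the way of the labelled cell types: of 12 pluripotent cell markers 11 were higher and 0 lower in iPS cells. Of 11 fibroblast markers 0 were higher, 5 lower and 6 not called. Of all clusters, 5.44% were called higher and 3.32% lower, by the test given with the first comparison below. The log2 of the summed level of the pluripotent markers was 15.77 and 15.93 in the iPS arrays, against 9.31 to 9.96 in the untreated ones. For the fibroblast markers it was 13.36 in secondary and 10.58 in primary iPS cells, against 14.81 to 16.06 in untreated cells, so the iPS arrays stood apart from each other on this list. Dox-treated 6C cells at day 21 had 13.13, below secondary iPS cells.

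LIN28 proteins bind RNA through a cold-shock domain and zinc knuckles. They hold back the maturation of the let-7 microRNAs by binding their precursors, in part by recruiting the uridylating enzymes Tut4 and Tut7, after which Dis3l2 degrades the tailed precursor. Mature let-7, abundant in differentiated cells and scarce in pluripotent ones, represses mRNAs with matching sites, among them those of Lin28 itself, of the chromatin protein Hmga2 and of the mRNA-binding proteins Igf2bp1 and Igf2bp3. Lin28a is known as a marker of pluripotent cells and as a factor that can aid reprogramming.

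The mature let-7 sequences are shown because their seed, bases 2 to 8 in capitals, is what the repressed mRNAs pair with. They are taken from RefSeq (GRCm38.p6).
let-7a: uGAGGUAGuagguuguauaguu
let-7b: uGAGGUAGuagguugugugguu
let-7d: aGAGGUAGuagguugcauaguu
let-7e: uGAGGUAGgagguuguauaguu
let-7g: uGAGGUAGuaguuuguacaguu
let-7i: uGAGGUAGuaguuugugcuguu
miR-98: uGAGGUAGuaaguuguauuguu
let-7j: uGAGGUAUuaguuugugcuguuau
Of 11 family members in the table, 10 share the seed GAGGUAG, and let-7j differs in it. Of all 1679 mature mouse microRNAs in the table, 11 (0.655%) have this seed.

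LIN28 is known to recognise GGAG near the loop of let-7 precursors. The letters GGAG, searched on the RNA strand and put in capitals, occur in 9 of 12 hairpins of let-7 and miR-98. The hairpins of let-7j and let-7k were not among these. They also occur in 44.8% of the 288 mouse hairpins of 83 to 108 bases, so their presence is no mark of the family. The hairpins of let-7g and let-7i each hold the letters once, in their 3′ part, and that of let-7c-2 does not hold them. The let-7g hairpin lies at chr9:106178840-106178927 on the plus strand, that of let-7i at chr10:122985640-122985724 on the minus strand, and that of let-7c-2 at chr15:85706603-85706697 on the plus strand (GRCm38.p6).
let-7g hairpin: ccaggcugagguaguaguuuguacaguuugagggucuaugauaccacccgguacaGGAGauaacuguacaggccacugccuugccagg
let-7i hairpin: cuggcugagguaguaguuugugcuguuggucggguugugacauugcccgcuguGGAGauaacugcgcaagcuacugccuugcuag
let-7c-2 hairpin: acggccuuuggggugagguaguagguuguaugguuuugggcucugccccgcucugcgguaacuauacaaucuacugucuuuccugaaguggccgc
The levels of the microRNAs themselves were not analysed here.

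The first comparison asked how these genes differ between iPS cells and the fibroblasts. Lin28a and Igf2bp1 were higher in iPS cells, Hmga2 was lower, and Igf2bp3 did not pass the test. Of all 23332 clusters, 5.44% were called higher and 3.32% lower by limma, which took a change of at least 2-fold with a p under 0.05 after Benjamini-Hochberg adjustment. In bulk RNA, fewer cells of a type and less RNA per cell cannot be told apart.

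**Figure D1:**
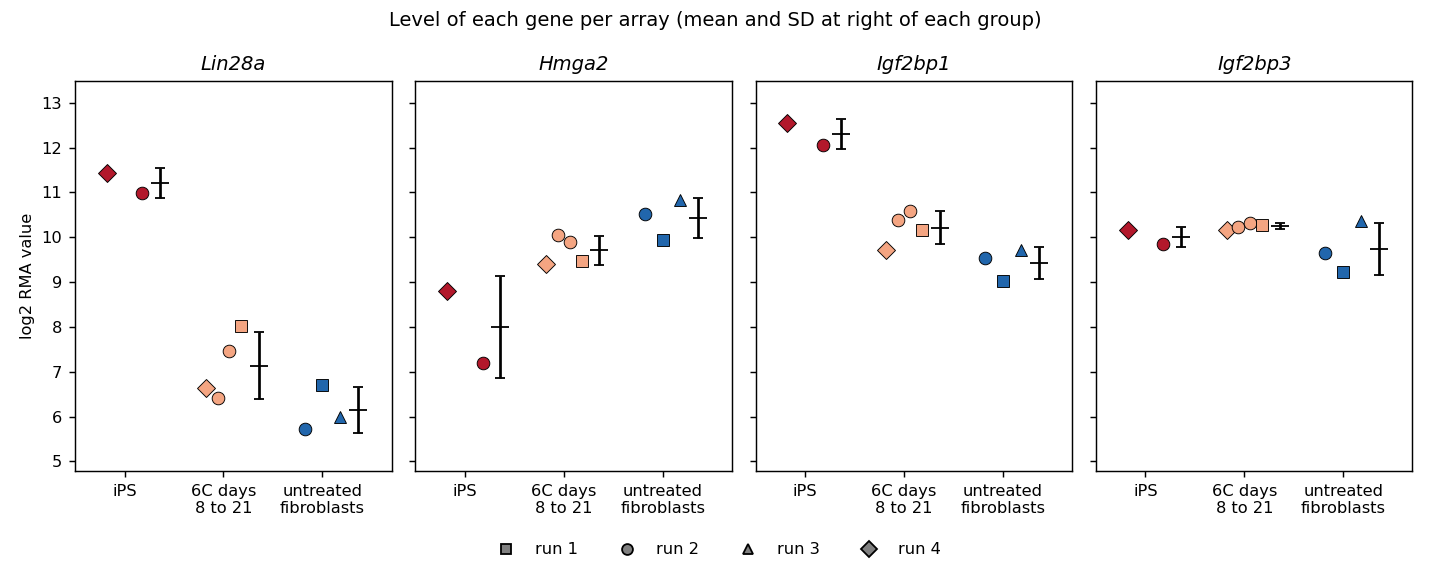
Level of each gene in log2 RMA values (y axis, shared) in iPS cells, 6C cells at days 8 to 21 of Dox and untreated fibroblasts, 1 point per array with its shape giving the run, and the mean and SD beside each group. The iPS arrays lie above all other arrays shown for Lin28a and Igf2bp1 and below them for Hmga2, while the groups overlap for Igf2bp3. Of all clusters, 22.2% had both iPS arrays above all untreated ones and 22.1% below. Against days 8 to 21 these shares were 15.4% and 15.1%.

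Lin28a, the inhibitor of let-7 maturation, stood at 11.44 in secondary and 10.98 in primary iPS cells, against 5.72 in parental fibroblasts, 6.71 in 6C day 0 and 6.00 in 1B day 0. Both iPS arrays lay above every untreated array, as they did for 22.2% of all clusters. The means were 11.21 ± 0.33 (SD, n = 2) in iPS cells and 6.14 ± 0.51 (SD, n = 3) in untreated cells. The difference was 5.07 on the log2 scale (SE 0.38), a 33.6-fold rise (limma adjusted p = 0.00518). It ranked as number 43 among the rises of all clusters. Within run 2, which held both groups, primary iPS cells exceeded parental fibroblasts by 5.26, where over 2-fold rises made up 14.1% of clusters and over 2-fold falls 19.0%. Without the primary iPS array the difference was 5.30, with an adjusted p = 0.0506.

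Hmga2, an AT-hook protein that binds DNA and bends chromatin, went the other way. It stood at 8.81 in secondary and 7.19 in primary iPS cells, against 10.51 in parental fibroblasts, 9.94 in 6C day 0 and 10.84 in 1B day 0. Both iPS arrays lay below every untreated array, as they did for 22.1% of clusters, but they were 1.61 apart from each other. The means were 8.00 ± 1.14 (SD, n = 2) in iPS cells and 10.43 ± 0.46 (SD, n = 3) in untreated cells, a difference of -2.43 (SE 0.54, limma adjusted p = 0.0498), or 5.39-fold lower. This call lay at the threshold: it was lost without the primary iPS array (-1.62, adjusted p = 0.189), the parental array (-2.39, adjusted p = 0.117), 6C day 0 (-2.68, adjusted p = 0.0809) or 1B day 0 (-2.23, adjusted p = 0.141), and kept without the secondary iPS array (-3.24, adjusted p = 0.0399). With run as a block in a fit of 9 arrays, chosen after seeing the data, the difference was -2.56 with an adjusted p = 0.0511, and within run 2 it was -3.32.

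Fibroblast markers moved with Hmga2 in some of the comparisons and not in others. All 11 measured fibroblast markers were over 2-fold higher in secondary than in primary iPS cells, with a median difference of 2.51. Hmga2 was higher there by 1.61, and was the only one of the 4 genes over 2-fold apart between the iPS arrays, where over 2-fold rises made up 7.94% of clusters and over 2-fold falls 7.35% in secondary cells. At 5 days of Dox in 1B the median fibroblast marker stood at 6.87, against 11.05 at day 0, and Hmga2 stood at 9.06, against 10.84. In the 6C series the marker median went down to 9.21 on day 16 and 8.77 on day 21, with 11.82 on day 0, while Hmga2 stood at 9.90 and 9.48 on those later days and at 9.94 on day 0. Day 8 had a marker median of 11.14 beside an Hmga2 level of 9.40. Secondary iPS cells had a higher marker median than day 21, 9.45, beside a lower Hmga2 level, 8.81. After withdrawal in 1B the marker median was 9.24 and Hmga2 stood at 10.30. The values have no true zero, so no marker can be called absent, and the part of these markers in the level of Hmga2 was not tested.

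**Figure D2:**
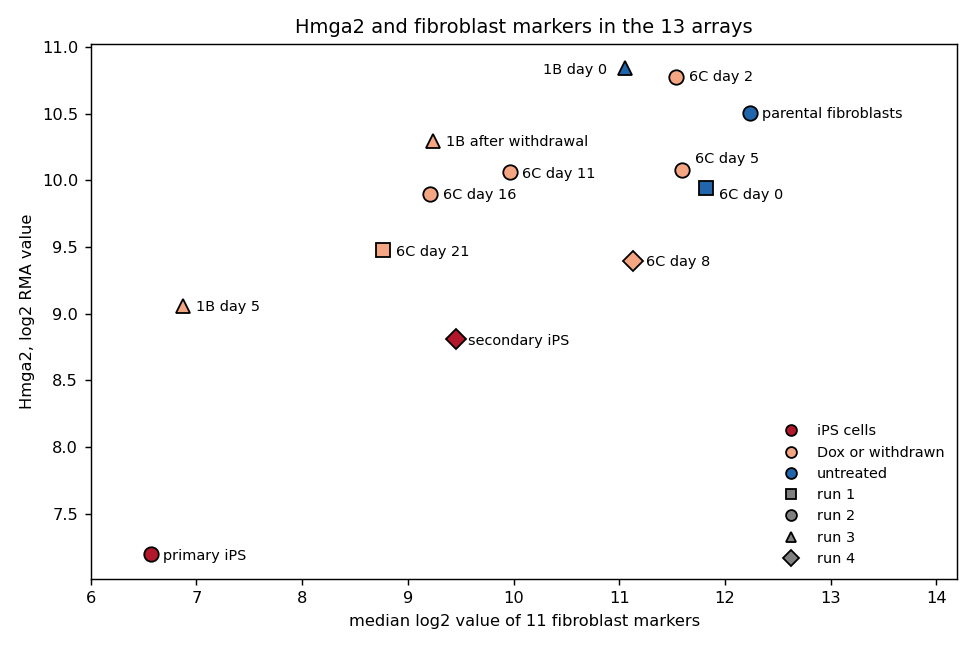
Hmga2 level (y axis, log2 RMA value) against the median level of 11 fibroblast markers (x axis, log2) in each of the 13 arrays, with colour for the kind of cell and shape for the run. Primary iPS cells are lowest on both axes, and 6C day 8 has a high marker median of 11.14 beside an Hmga2 level of 9.40.

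Igf2bp1, which binds mRNAs and shields them from decay, stood at 12.54 in secondary and 12.07 in primary iPS cells, against 9.53 in parental fibroblasts, 9.04 in 6C day 0 and 9.71 in 1B day 0. The iPS arrays again lay above all untreated ones, as they did for 22.2% of all clusters. The means were 12.31 ± 0.34 (SD, n = 2) in iPS cells and 9.42 ± 0.35 (SD, n = 3) in untreated cells, a rise of 2.88 (SE 0.32, limma adjusted p = 0.0113), or 7.36-fold. Within run 2 the difference was 2.54. The call was lost without the primary iPS array (3.12, adjusted p = 0.0743) or without 1B day 0 (3.02, adjusted p = 0.0544).

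Igf2bp3, the paralog of Igf2bp1, stood at 10.17 in secondary and 9.86 in primary iPS cells, against 9.64 in parental fibroblasts, 9.23 in 6C day 0 and 10.37 in 1B day 0. The iPS arrays fell within the range of the untreated ones. The means were 10.01 ± 0.22 (SD, n = 2) in iPS cells and 9.74 ± 0.58 (SD, n = 3) in untreated cells, a difference of 0.27 (SE 0.39, limma adjusted p = 0.733) with a 95% interval of -0.69 to 1.23. The change of Igf2bp1 exceeded that of Igf2bp3 by 2.61. With 2 against 3 arrays, no exact permutation test of this difference in change could reach the threshold.

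The 6C series asked when these levels changed. Lin28a and Igf2bp1 passed the test over the days and Hmga2 and Igf2bp3 did not, where 6.36% of all clusters were called, 3.87% with a curve above day 0 at day 30 and 2.49% with one below it. A gene was called if limma's F test of a cubic curve over 8 arrays had an adjusted p under 0.05 and the curve moved at least 2-fold from day 0. The p-values rest on the scatter around the curve, with 1 array per day. The secondary iPS cells stand in this series as day 30.

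**Figure D3:**
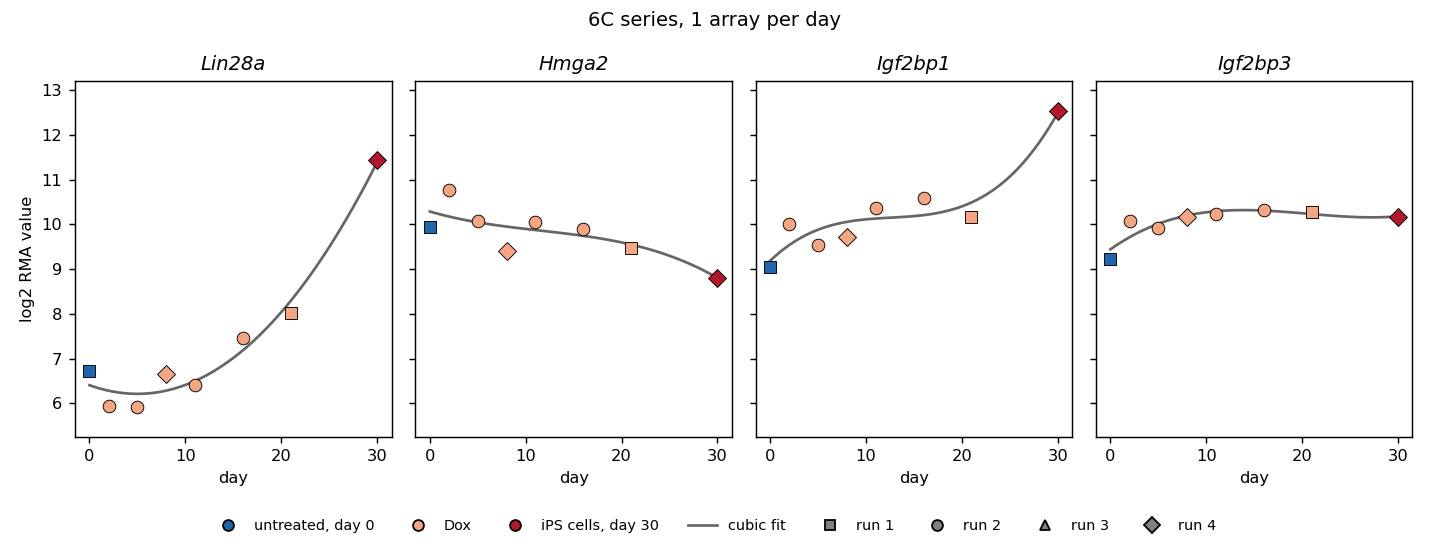
Level of each gene (y axis, log2 RMA value, shared) over the days of the 6C series (x axis), 1 array per point, with the fitted cubic curve and the run as the shape. Lin28a stays between 5.92 and 6.71 through day 11, reaches 8.02 at day 21 and 11.44 in the iPS cells, while Igf2bp3 stays between 9.93 and 10.32 from day 2 on.

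Lin28a rose late. It measured 6.71 at day 0, 5.94 at day 2, 5.92 at day 5, 6.64 at day 8, 6.41 at day 11, 7.46 at day 16, 8.02 at day 21, with 11.44 in secondary iPS cells. Through day 11 every treated array lay below the day 0 array, and the highest of these levels was within the range of the untreated arrays. The fitted change was 0.09 (SE 0.40) at day 11 and 0.78 (SE 0.38) at day 16. By day 21 the curve lay 1.89 (SE 0.37) above day 0, and by day 30 it lay 4.99 (SE 0.47) above it, with the onset, the earliest sampled day over 2-fold from day 0, at day 21 (limma adjusted p = 0.00875).

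Within run 2, Lin28a stood at 5.72 in parental fibroblasts, 5.94 at day 2, 5.92 at day 5, 6.41 at day 11, then 7.46 at day 16, while primary iPS cells had 10.98. Within run 1, day 21 exceeded day 0 by 1.31, where over 2-fold rises made up 13.0% of clusters and over 2-fold falls 9.08%. Igf2bp1 was 1.12 and Igf2bp3 1.05 higher there, but with quantile normalization these values were 0.87 and 0.83, under 2-fold, and with each array centred on its median 1.02 and 0.94. Day 0 of 6C had the lowest array median. With the untreated arrays of all 3 lines as day 0 the limma adjusted p of Lin28a in the series was 6.1e-04. The call of Lin28a was lost without the iPS array, where the fitted change at day 21 was 1.46 (adjusted p = 0.139). It was also lost with run as a fixed block (4.02, adjusted p = 0.0809).

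Igf2bp1 measured 9.04 at day 0, 10.01 at day 2, 9.54 at day 5, 9.72 at day 8, 10.37 at day 11, 10.59 at day 16, 10.16 at day 21, with 12.54 in secondary iPS cells. All treated arrays lay above the day 0 array, which was also the lowest of the untreated arrays. Its fitted change was 0.87 (SE 0.44) at day 8 and 1.02 (SE 0.42) at day 16. By day 21 it had reached 1.31 (SE 0.42), and by day 30 it was 3.31 (SE 0.52), with the onset at day 16 (limma adjusted p = 0.0433). The call was lost without any 1 of the 8 arrays, with adjusted p-values of 0.063 to 0.47, and with run as a fixed block (2.48, adjusted p = 0.0932). Without the iPS array the fitted change at day 21 was 0.86.

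Hmga2 measured 9.94 at day 0, 10.77 at day 2, 10.08 at day 5, 9.40 at day 8, 10.06 at day 11, 9.90 at day 16, 9.48 at day 21, with 8.81 in secondary iPS cells. Its fitted change was -0.74 (SE 0.43) at day 21 and -1.49 (SE 0.54) at day 30, short of the threshold (limma adjusted p = 0.295). Igf2bp3 measured 9.23 at day 0, 10.07 at day 2, 9.93 at day 5, 10.17 at day 8, 10.23 at day 11, 10.32 at day 16, 10.28 at day 21, with 10.17 in secondary iPS cells. Every later array lay above day 0, the dimmest array of the series, but 1B day 0, also untreated, stood above all of them at 10.37. Its largest fitted change was 0.87 (SE 0.28) at day 16, also short of it (limma adjusted p = 0.268).

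iPS cells were also set against 6C cells at days 8, 11, 16 and 21, and those against untreated fibroblasts, in a limma fit of 9 arrays. The 4 days are different times and not replicates, so their spread includes change over time. Lin28a and Igf2bp1 were higher in iPS cells than in these late Dox-treated cells, where 2.01% of all clusters were called higher and 2.58% lower. Lin28a averaged 11.21 in iPS cells and 7.13 ± 0.74 (SD, n = 4) at days 8 to 21, a difference of 4.08 (SE 0.47, adjusted p = 0.00318), the rise ranked 15 among all clusters. Igf2bp1 averaged 12.31 in iPS cells and 10.21 ± 0.37 (SD, n = 4) at days 8 to 21, a difference of 2.09 (SE 0.30, adjusted p = 0.00825). Both calls were kept without any 1 of the 9 arrays and with run as a fixed block, the highest adjusted p being 0.0239 for Lin28a and 0.0493 for Igf2bp1.

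Hmga2 averaged 8.00 in iPS cells and 9.71 ± 0.32 (SD, n = 4) at days 8 to 21, a difference of -1.71 (SE 0.45) that missed the threshold (adjusted p = 0.0662). It passed with quantile normalization (-1.56, adjusted p = 0.0453), with each array centred on its median (-1.62, adjusted p = 0.044), with a filter on low values (adjusted p = 0.038) and without the secondary iPS array (-2.52, adjusted p = 0.0221), and without the primary iPS array it was -0.90. Igf2bp3 differed by -0.23 (SE 0.30, adjusted p = 0.736), with a 95% interval of -0.91 to 0.44.

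Between days 8 to 21 and untreated fibroblasts none of the 4 genes was called, where 5.56% of clusters were called higher and 3.28% lower. The differences were 0.99 (SE 0.42, limma adjusted p = 0.17) for Lin28a, 0.79 (SE 0.27, adjusted p = 0.0998) for Igf2bp1, 0.50 (SE 0.26, adjusted p = 0.269) for Igf2bp3 and -0.72 (SE 0.39, adjusted p = 0.291) for Hmga2. Lin28a and Igf2bp1, 2 of the 4, had an unadjusted p under 0.05 by limma, and the intervals ran from 0.05 to 1.94 for Lin28a and from 0.18 to 1.40 for Igf2bp1.

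The 5 days of Dox asked for a response shared by the 6C and 1B lines. None of the 4 genes passed limma's test with line as a block, where 0% of 23332 clusters passed and 7.59% had an unadjusted p under 0.05. None of the 4 had an unadjusted p under 0.05. Igf2bp1 stood at 9.54 at day 5 and 9.04 at day 0 in 6C, and at 10.27 at day 5 and 9.71 at day 0 in 1B. Igf2bp3 stood at 9.93 at day 5 and 9.23 at day 0 in 6C, and at 10.83 at day 5 and 10.37 at day 0 in 1B. Both were thus above the day 0 array of their line, by 0.50 in 6C and 0.57 in 1B for Igf2bp1. For Igf2bp3 the values were 0.70 in 6C and 0.47 in 1B, and all were under 2-fold. In 6C the day 0 array was of another run and the lowest of the untreated arrays for both genes. Within run 2, parental fibroblasts stood at 9.53 for Igf2bp1, close to 9.54 in 6C at day 5. For Igf2bp3 they stood at 9.64, against 9.93.

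The other genes moved apart in the lines, as 47.5% of all clusters did. In 6C the day 5 array was in run 2 and day 0 in run 1, while the 1B arrays were in run 3. Lin28a stood at 5.92 at day 5 and 6.71 at day 0 in 6C, and at 6.64 at day 5 and 6.00 at day 0 in 1B. Both day 5 levels of Lin28a lay within the range of the untreated arrays, 5.72 to 6.71. Hmga2 stood at 10.08 at day 5 and 9.94 at day 0 in 6C, and at 9.06 at day 5 and 10.84 at day 0 in 1B. The change of Hmga2 in 1B, -1.78 or 3.44-fold lower, was the only one of these 8 changes over 2-fold. In 1B, over 2-fold rises made up 9.49% of clusters and over 2-fold falls 12.7% at day 5, and in 6C 14.6% and 5.86%. The change has no test, with 1 array per condition. Keratinocyte markers were high in the 1B day 5 array, with 8 of 11 over 2-fold above parental cells. In 1B day 0, 2 of 11 were. The 6C day 5 array, with Hmga2 at 10.08, also had 8 of 11 over 2-fold above parental cells. The part of these markers was not tested.

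**Figure D4:**
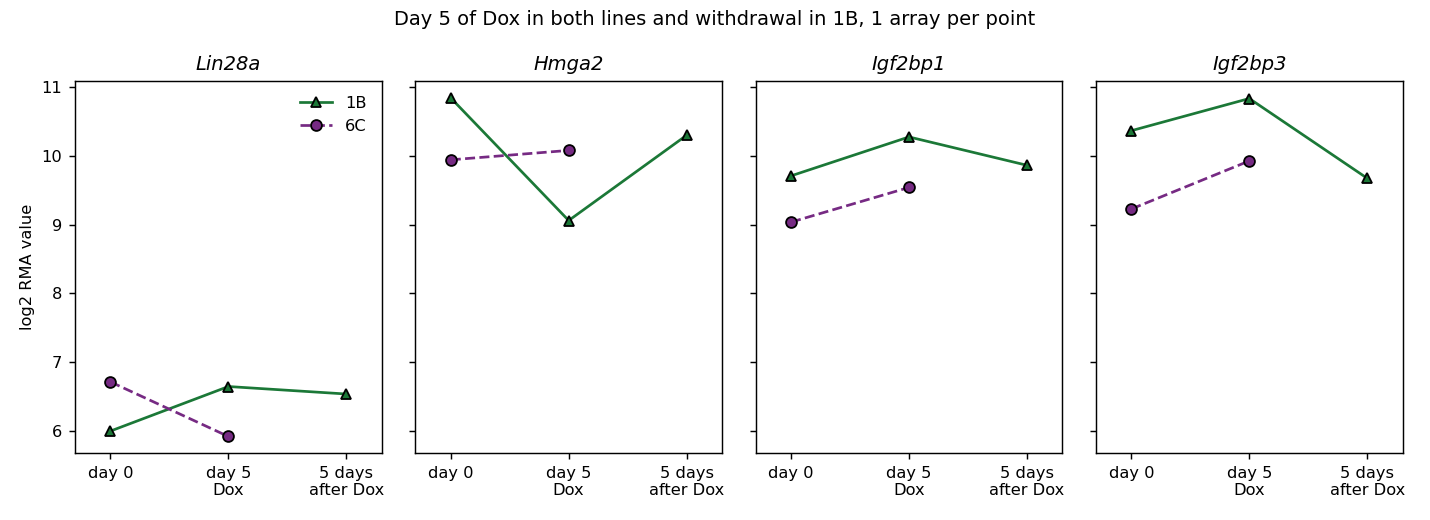
Level of each gene (y axis, log2 RMA value, shared) at day 0 and at 5 days of Dox in 1B and 6C, and after 5 further days without Dox in 1B, 1 array per point. Hmga2 in 1B is at 10.84, 9.06 and 10.30 in this order, and Lin28a in 1B stays between 6.00 and 6.64.

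Withdrawal of Dox in 1B asked which changes lasted. Hmga2 stood at 10.30 after withdrawal, against 9.06 at day 5 and 10.84 at day 0, so that it was 2.36-fold above day 5, where 10.8% of clusters were over 2-fold higher. Igf2bp3 stood at 9.67 after withdrawal, against 10.83 at day 5 and 10.37 at day 0, 2.23-fold below day 5, where 11.8% of clusters were over 2-fold lower. Igf2bp1 stood at 9.86 after withdrawal, against 10.27 at day 5 and 9.71 at day 0. Lin28a stood at 6.53 after withdrawal, against 6.64 at day 5 and 6.00 at day 0. None of the 4 genes was over 2-fold from day 0 after withdrawal, where over 2-fold rises made up 3.38% of clusters and over 2-fold falls 7.41%, and none of these values has a test.

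Over the 13 arrays the genes differed in how much they varied and in their order. The range was 5.73 for Lin28a, wider than or equal to that of 99% of clusters, 3.65 for Hmga2, 3.51 for Igf2bp1 and 1.61 for Igf2bp3, at percentile 47.4. Ordered by level, and with the SD of the untreated arrays as the measure of spread, Lin28a had gaps beyond that spread of 0.51 only between primary iPS cells and day 21 (2.95), between day 21 and day 16 (0.57) and between day 16 and 6C day 0 (0.75), and the other neighbouring arrays did not differ beyond it. Hmga2 had such a gap only between secondary and primary iPS cells (1.61, with a spread of 0.46). Igf2bp1 had them between the iPS arrays (0.48), between primary iPS cells and day 16 (1.47) and between parental fibroblasts and 6C day 0 (0.49), with a spread of 0.35. Igf2bp3 had none beyond its spread of 0.58.

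Lin28a and Igf2bp1 had a Pearson's r of 0.92 and a Spearman's rho of 0.66 over the 13 arrays, and Lin28a and Hmga2 had -0.83 by either measure. These are descriptions with no test, since the arrays share lines and runs, and in the first pair the iPS arrays stand far from the rest. The genes closest to Lin28a by Pearson's r, among 1610 named genes with an SD of at least 1, were Nodal (0.99), Lrrc2 (0.98), Pecam1 (0.98), Dnmt3l (0.98) and Ooep (0.98). Those closest to Hmga2 were Ltbp1 (0.96), Cald1 (0.96), Parva (0.95), Lhfp (0.94) and Lats2 (0.94). Those closest to Igf2bp1 were Nr6a1 (0.95), Slc27a2 (0.94), Mtf2 (0.94), Mreg (0.94) and Nodal (0.94). Igf2bp3 had weaker neighbours, from Stmn2 (0.81) to Rragd (0.76), with Satb1, Dnph1 and Prkaa2 between them. By Spearman's rho the neighbours of Lin28a had 0.96 for Nodal and 0.75 to 0.81 for the others. For the neighbours of Hmga2 rho was 0.82 to 0.94, of Igf2bp1 0.75 to 0.94 and of Igf2bp3 0.64 to 0.74.

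The rest of the pathway was followed in 4 lists of genes. Of 17 genes that process microRNAs or act on let-7 precursors 15 were measured, and 1 of them was higher and 0 lower in iPS cells, near the shares of all clusters, 5.44% higher and 3.32% lower. That was Drosha, the nuclear enzyme that cuts primary microRNA transcripts, at a mean of 10.37 in iPS cells and 8.93 in untreated cells, a rise of 1.43 (SE 0.27, limma adjusted p = 0.0346). The list's median difference was 0.57, where that of all clusters was -0.02. Without any 1 of the 5 arrays, 0 genes of this list were called. Dis3l2, the exonuclease that degrades tailed let-7 precursors, differed by 1.17 (SE 0.33, adjusted p = 0.0818), and Tut7, the uridylating enzyme, by -0.94 (SE 0.27, adjusted p = 0.0855). Dicer1, which cuts the hairpin, differed by 0.85 (adjusted p = 0.091), Tarbp2, its partner, by 1.09 (adjusted p = 0.0779) and Dgcr8, the partner of Drosha, by 0.74 (adjusted p = 0.206). In the 6C series Dis3l2 was the member called, with its onset at day 5, and it was 1.19 lower in iPS cells than at days 8 to 21.

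Of 10 effector proteins, which carry out repression, 2 were higher in iPS cells and 0 lower (all clusters 5.44% and 3.32%), with a list median of -0.20. These were Gemin4 (1.89, SE 0.30, limma adjusted p = 0.0242) and the RNA helicase Mov10 (1.87, SE 0.31, adjusted p = 0.027), and neither call was kept without any 1 of the 5 arrays. The Argonaute genes, whose proteins hold the microRNA, did not pass the test: Ago1 differed by 0.22 and Ago3 by -0.92.

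Of 39 other let-7 targets 30 were measured, 6 were higher in iPS cells and 2 lower, where 5.44% and 3.32% of all clusters were, so that the lower count was near the background. The list's median was -0.15. The counts were 1 higher and 0 lower without the primary iPS array, 3 and 0 without 1B day 0, 0 lower without parental fibroblasts, and 5 lower without the secondary iPS array. Mycn, a transcription factor of the Myc family, rose by 5.58 (SE 0.29, limma adjusted p = 0.00204), Dna2, a nuclease and helicase of DNA replication, by 3.39 (SE 0.33, adjusted p = 0.00851) and Nr6a1, an orphan nuclear receptor, by 3.14 (SE 0.24, adjusted p = 0.00548). Mycn was at 11.55 in secondary and 11.23 in primary iPS cells, against 5.55 to 6.14 in untreated cells. Plagl1, a zinc finger protein gene, fell by 2.84 (SE 0.55, adjusted p = 0.0363), and Igf1r, the receptor of insulin-like growth factor, differed by -2.26 (SE 0.35, adjusted p = 0.0237), also lower and named after its value was seen. The collagen genes Col1a2 (-2.96, adjusted p = 0.109) and Col3a1 (-3.73, adjusted p = 0.102), which are also fibroblast genes, did not pass the test.

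Of 24 other RNA-binding protein genes of stem and germ cells 22 were measured, 6 were higher in iPS cells and 2 lower (all clusters 5.44% and 3.32%), with a list median of 0.60. Without any 1 array 2 to 3 were higher, and 0 were lower except without the secondary iPS array. Esrp1, an epithelial splicing regulator, rose by 5.39 (SE 0.26, limma adjusted p = 0.00204), Dazl by 4.30 (SE 0.26, adjusted p = 0.00276) and Ddx4 by 3.76 (SE 0.73, adjusted p = 0.0371), the last pair known from germ cells. Rbm47 rose by 3.25 (SE 0.38, adjusted p = 0.0128) and Rbpms by 2.29 (SE 0.36, adjusted p = 0.0252). Mbnl1, a splicing regulator of differentiated cells, fell by 2.49 (SE 0.35, adjusted p = 0.0205), and its paralog Mbnl2 differed by -2.09 (SE 0.32, adjusted p = 0.0237), also named after its value was seen. Markers of germ cells, which share Dazl and Ddx4 with this list, were higher in iPS cells for 7 of 9 genes and lower for 0, and the log2 of their summed level was 11.54 and 11.12 in the iPS arrays, against 8.75 to 8.86 in untreated cells. Their part in the rise of Lin28a, which germ cells also express, was not tested.

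**Figure D5:**
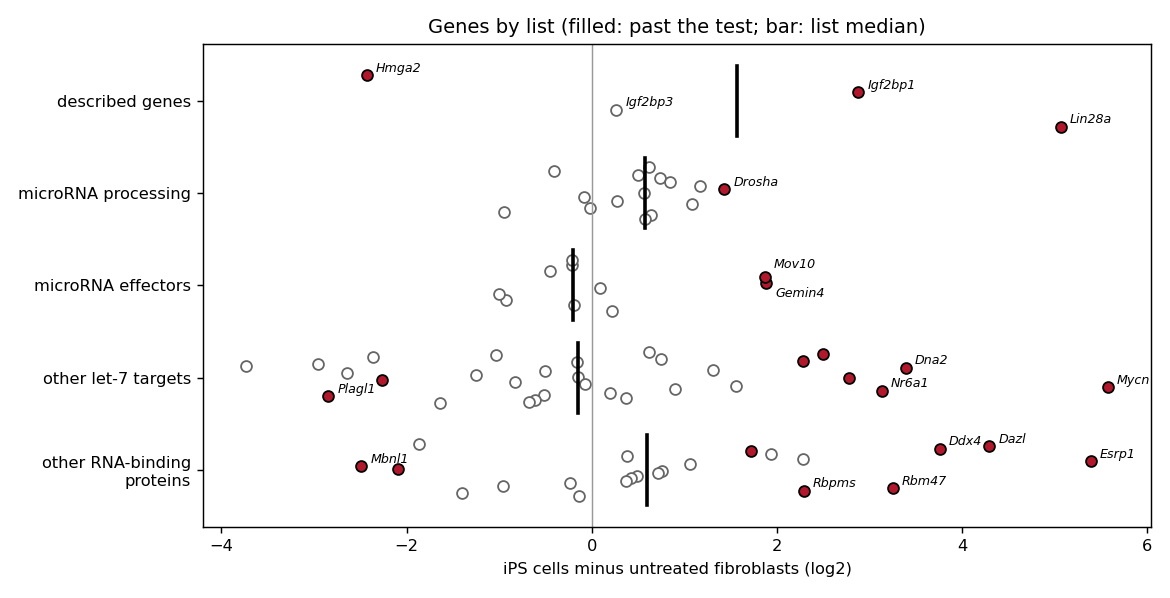
Difference between iPS cells and untreated fibroblasts (x axis, log2) for the 4 described genes and for the measured genes of the 4 pathway lists, 1 point per gene, filled where limma's test was passed, with a bar at each list's median. Filled points lie on both sides of 0 among let-7 targets (6 higher, 2 lower), and most microRNA processing and effector genes are open.

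In the 6C series the same lists had 1 of 15 processing genes, 1 of 10 effectors, 4 of 30 other let-7 targets and 6 of 22 other RNA-binding protein genes called above day 0 at day 30, where 3.87% of all clusters were. Below day 0 there were 0, 0, 2 and 1 genes in that order of lists, where 2.49% of all clusters were. The processing genes lay near the share of all clusters. Leaving out each of the 8 arrays in turn left 0 to 1 processing genes, 0 effectors, 0 to 4 other let-7 targets and 1 to 3 other RNA-binding protein genes above day 0. Onset days of the fitted curves differed among them: day 2 for Esrp1, day 5 for Mycn, day 21 for Rbpms, and day 30 for Nr6a1, Gemin4 and Dazl. Igf2bp1 had day 16 and Lin28a day 21. The curves can depart from the measured levels, so their order need not be that of the genes. Esrp1 measured 4.63 at day 0, 4.85 at day 2 and 7.72 at day 5. Nr6a1 measured 6.43 at day 0, 7.52 at day 11 and 7.04 at day 21.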

How the data were processed

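Per the submitters' processing notes, the authors' deposited log2 values come from RMA, which corrects background, normalizes between arrays and summarises the probes of a cluster. The notes also name Affymetrix Expression Console and mm9. A log base of 2 was assumed, since values run between 0.46 and 14.3. RMA compresses low values, and precision is limited by how few arrays there are. Of 23332 clusters 14996 had 1 gene symbol, 1019 several and 7317 none. Of the single symbols, 14941 were matched by gene identifier to the GRCm38.p6 annotation and took its symbol, whether or not that differed. The build of that annotation differs from mm9, so coordinates are given for let-7 hairpins only and not for the genes measured on the arrays. Per gene the cluster with the highest mean was used.

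Fits were made with limma 3.58.1 in R 4.3.3 over all clusters, with Benjamini-Hochberg adjustment. Their code was tried on simulated data with independent noise and no run or line effects, which does not give error rates for these arrays. Alternatives were quantile normalization, centring each array on its median, a filter (log2 value of at least 6 in at least 2 arrays, 15082 clusters left), degree 2, run blocks, other baselines and each array left out. The genes, lists and tests were chosen with earlier results of these data known. Named genes were the described genes, the 5 closest genes to each by Pearson's r, and the 6 genes of each list with the largest iPS difference. Marker lists served to check the cell types.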

Additional observations from a re-analysis of the deposited data

Results flagged for a closer look

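At 5 days of Dox the lines moved in opposite directions for Lin28a and Hmga2, which was not tested, with 1 array per condition. In 6C the day 5 array was in run 2 and day 0 in run 1, while the 1B arrays were in run 3. Line and run thus cannot be told apart here. Lin28a changed by -0.79 in 6C but by 0.65 in 1B, so 6C minus 1B was -1.44. Both of its day 5 levels, 5.92 in 6C and 6.64 in 1B, lay within the range of the untreated arrays, 5.72 to 6.71. Within run 2, Lin28a stood at 5.92 in 6C at day 5 and at 5.72 in parental fibroblasts. Hmga2 changed by 0.14 in 6C but by -1.78 in 1B, so 6C minus 1B was 1.92. The change in 6C was smaller than the SD of the untreated arrays, 0.46. Over all clusters, 47.5% changed in opposite directions in the lines, so such a split is common and no trait of these genes.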

How the results depend on the processing

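The direction of every tested difference of the 4 genes was kept under every alternative run. Quantile normalization, centring and the filter changed no call of these genes other than that of Hmga2 between iPS cells and days 8 to 21, which passed under each of them. With run as a fixed block, 0 of the 4 genes were called in the 6C series, and in the fit of 9 arrays 0 were lower in iPS cells. Leaving out each array in turn, 0 to 2 genes were higher and 0 to 1 lower in iPS cells than in untreated cells, 0 to 1 were called in the 6C series, 2 were higher in iPS cells than at days 8 to 21, and 0 were higher at days 8 to 21 than in untreated cells. These fits have fewer arrays. Run as a random block could not be fitted on 5 arrays. Leaving out an array at day 5 leaves no residual degrees of freedom and was not run. No other cluster carried 1 of the 4 symbols alone. No paired analysis was possible because the labels give no replicate numbers, apart from the pairing by line at day 5 and the run blocks above.

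Among the lists, the filter gave 3 processing genes higher in iPS cells in place of 1, and 6 other let-7 targets lower in place of 2, with fewer clusters tested. Quantile normalization gave 2 processing genes higher. In the 6C series the filter and centring each gave 4 other let-7 targets lower in place of 2, the filter, centring and quantile normalization each gave 2 other RNA-binding protein genes lower in place of 1, and the filter gave 2 effectors higher in place of 1. Leaving out each array, 1 to 6 other let-7 targets and 2 to 3 other RNA-binding protein genes were higher in iPS cells, 0 to 5 and 0 to 2 were lower, and 0 processing or effector genes were called. In the 6C series these ranges were 0 to 4 and 1 to 3 higher, and 0 to 1 and 0 lower, with 0 to 1 processing and 0 effector genes higher.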
